A study of Mus musculus with 18 samples.

Results

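Ribosome biogenesis factors are the nucleolar and nuclear proteins that process ribosomal RNA (rRNA) and assemble it with ribosomal proteins into the small and large subunits. The 43 genes described here were chosen by name from lists of such factors, with earlier results of these data known, and all 43 were found among the 20683 genes of the deposited count table. By role they comprised 3 core proteins of box C/D small nucleolar ribonucleoproteins (snoRNPs), 4 core proteins of box H/ACA snoRNPs, 2 nucleolar scaffold proteins, 19 factors of small subunit assembly and 15 factors of large subunit assembly. Their total RNA, their cycloheximide ribosome footprints and their harringtonine footprints were compared between untreated cells and cells given tunicamycin.

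The cells in all 6 groups were fetal liver erythroblasts, the precursors of red blood cells, from FVB/n x C57BL/6 mice with the Trp53 -/- genotype, so the controls also lacked Trp53. They were kept in StemPro medium with 0.5 U/ml Epo, 1% SCF supernatant and 1 nM dexamethasone. Tunicamycin, which blocks N-glycosylation in the endoplasmic reticulum and was used to bring about eIF2 phosphorylation, was given at 2.5 ug/ml for 1.5 h. Each treatment had 3 total RNA libraries, 3 footprint libraries made after 5 min in 100 ug/ml cycloheximide, which freezes ribosomes where they are, and 3 footprint libraries made after 2 ug/ml harringtonine, which holds ribosomes at start codons. Nothing in the labels ties the 3 samples of a group to separate cultures or animals, and the p-values therefore reflect the spread among these libraries, which may be technical.

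Ribosomal RNA is transcribed in the nucleolus as a long precursor that is modified, cleaved and folded while proteins assemble on it. Box C/D snoRNPs guide ribose methylation and box H/ACA snoRNPs guide pseudouridylation, while the small subunit processome and the assembly factors of the large subunit drive cleavage and folding. Making ribosomes is among the costliest syntheses of a growing cell, and erythroblasts divide rapidly while they build up their protein content. Stress that leads to eIF2 phosphorylation lowers the start of translation on most mRNAs and favours a few with upstream reading frames in their 5′ leaders.

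The start sites of the members that could be read are shown first, because the harringtonine reads described further on are counts at deposited positions. Not all of those positions could be read. Each deposited harringtonine position is a single nucleotide with its read count. RefSeq promoter windows run from 250 bases before to 50 after a RefSeq start (GRCm38.p6). That start need not be the first base of the gene's span. Of all 9025 positions, 1080 fell in these windows, in which the sequence could be read. Among the 743 of those whose downstream bases were also inside the window, 185 (24.9%) had ATG starting 12 or 13 nt downstream of the position, and the share with ATG at any other distance was lower. Those 185 positions therefore lay upstream of an ATG by about the distance from a footprint's 5′ end to the start codon. For positions outside the windows this could not be read. Among the members, 13 positions fell in such windows and 9 could be read, of which 6 had ATG at that distance. The sequences below are written 5′ to 3′ on the gene's strand, with that ATG in capitals, and show where initiating ribosomes were captured on Heatr1, Tsr1, Utp15, Nol9 and Nhp2. They are RefSeq sequences of GRCm38.p6, and Tsr1 had a second position 1 nt away with the same ATG. In Nhp2 the position shown held 34.8% of the gene's harringtonine reads, and a position at 11:51619875 held the other 65.2%.
Heatr1, chr13:12395386-12395415, plus strand: gagttccgggacagtgccggcaccATGtgg
Tsr1, chr11:74898094-74898123, plus strand: acttggtgcacacgtggactgcagaATGgc
Utp15, chr13:98262948-98262977, minus strand: ttttgagcgagtgctgcagagcggtATGct
Nol9, chr4:152039330-152039359, plus strand: ccgccggaggggttccgggacaagcATGgc
Nhp2, chr11:51619793-51619822, plus strand: ccgggacggagttgtagttgctaagATGac

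At the other 3 readable positions no ATG stood 12 or 13 nt downstream. The capitals here mark the 4 bases that cover both distances.
Pes1, chr11:3963990-3964019, plus strand: aagtagctctggtgttctggctgcCTTGaa
Nop16, chr13:54590041-54590070, minus strand: gcacgggtggacggagactattaaCACGcg
Utp15, chr13:98262977-98263006, minus strand: cgtttccggctcctggactgtccgCGTGat
Each of these 3 stretches holds a triplet that differs from ATG at 1 base (TTG in Pes1, ACG in Nop16, GTG in Utp15). Across all 743 readable positions, 313 (42.1%) had no ATG but such a triplet at 12 or 13 nt, so such a triplet was common. In Pes1 and Nop16 the position without ATG held most of the gene's harringtonine reads, 85.9% and 62.4%. The Utp15 position without ATG lay upstream of the position with ATG and held 19.2% of the gene's harringtonine reads, against 80.8% at the ATG.

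**Figure D1:**
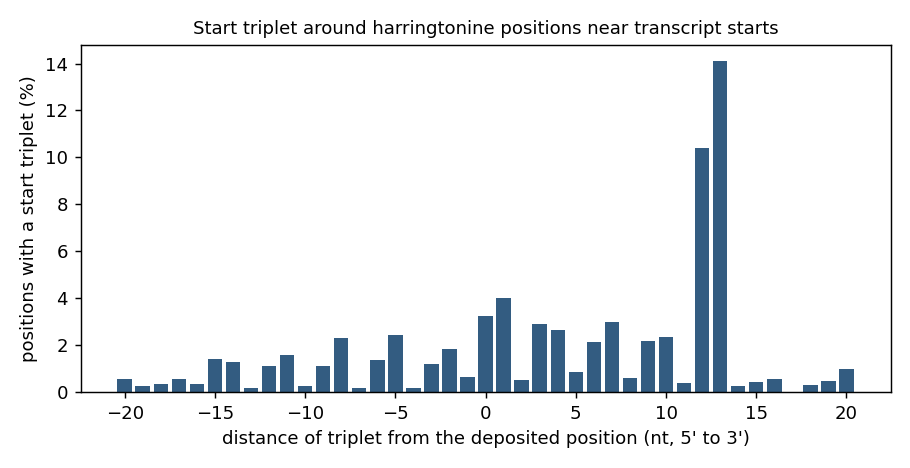
Share of harringtonine positions near transcript starts (y axis, percent of positions with readable sequence) that have an ATG at each distance from the deposited position (x axis, nt). The bars at 12 and 13 nt reach 10.4% and 14.1%, and no other bar passes 4.01%.

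The libraries held 12.9 to 49.0 M (mega) RNA reads, 4.53 to 6.65 M coding sequence (CDS) footprints, 0.275 to 0.59 M leader footprints and 0.447 to 0.648 M harringtonine reads at the deposited positions. Of 11 erythroid markers in the table, 9 were at or above 5 CPM (counts scaled to a library of 1 M reads) in RNA, and Hbb-bs and Hba-a1 were listed at 0. No marker of macrophages, granulocytes, hepatocytes, endothelium or lymphocytes reached 5 CPM, whereas 1 of 5 megakaryocyte markers (Gp5) and 1 of 4 mast cell markers (Ms4a2) did. The megakaryocyte markers summed to 111 to 116 CPM in untreated and 92.6 to 103 CPM in tunicamycin libraries, and the mast cell markers to 105 to 169 and 107 to 172 CPM. Their part in the results was not tested. Atf4, whose mRNA is known to be translated under eIF2 phosphorylation, had 2.18 ± 0.11 higher CDS footprints on the log2 scale (SE, edgeR adjusted p = 2.33e-08) and served as a check of the treatment.

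The 43 genes together made up 1.18% ± 0.0252 (SD, n = 3) of RNA reads in untreated cells and 1.28% ± 0.0153 with tunicamycin, and the groups did not overlap (1.16 to 1.21% and 1.26 to 1.29%). Of all leader footprints they held 0.92% ± 0.13 and 1.17% ± 0.05, again without overlap. In CDS footprints they made up 1.65% ± 0.139 and 1.76% ± 0.0173. The third untreated footprint library stood lower at 1.49%, against 1.74% and 1.72% in the other two. In bulk libraries, fewer cells of a type and less RNA per cell cannot be told apart.

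None of the 43 genes passed the test for a change of RNA after 1.5 h of tunicamycin, although most fitted values were above 0, with a median log2 change of 0.15 over the 19 small subunit factors and 0.04 over the 15 large subunit factors. The edgeR quasi-likelihood test over 10643 genes, with a Benjamini-Hochberg adjusted p under 0.05 counted as passing, called 0 of 43, against 0.150% of all genes tested, and 16 members (37.2%) had an unadjusted p under 0.05, as did 1324 of all genes (12.4%). DESeq2 called 4 as higher (Mphosph10, Ncl, Utp20 and Nop58), against 0.714% of all genes. Fitted log2 changes ran from -0.15 to 0.31, with 34 above and 9 below 0 and a median of 0.09, where the median of all genes tested was -0.00. In 14 members (32.6%) all 3 tunicamycin libraries lay above all 3 untreated ones, against 8.40% of all genes tested, and in 1 member (2.33%), Nhp2, all 3 lay below, against 9.47%.

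Untreated and tunicamycin libraries of the same number deviated together over all genes. With the replicate number as a block in the edgeR fit, 10 of the 43 passed as higher and 0 as lower. Of all 10643 genes tested, 2.66% were called higher and 127 genes lower. The 10 members were 7 of 19 small subunit factors, 1 of 15 large subunit factors, 1 of 3 box C/D proteins, 1 of 2 scaffold proteins and 0 of 4 box H/ACA proteins. This count rested on the pairs used. Without pair 1 it was 1 (Utp20; 0.936% of all genes), without pair 2 it was 0 (0.305%), and without pair 3 it was 21 higher (11.9%). In the fit without pair 3, 3 members were called lower (Imp3, Nhp2 and Rrp15), where 1037 of all 10698 genes tested were called lower.

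Among the small subunit factors, Mphosph10, which holds Imp3 and Imp4 in a complex bound to the U3 snoRNP, was at 141, 133 and 142 CPM in untreated and 167, 177 and 167 CPM in tunicamycin RNA. Its 2 groups did not overlap, and its log2 change of 0.31 ± 0.06 (SE) had an edgeR adjusted p of 0.0993 without and 0.0242 with the block. Of its partners, Imp3 was at 206, 209 and 179 CPM and then 185, 190 and 174 CPM, with overlapping groups and an edgeR adjusted p of 0.587. Imp4 had a log2 change of -0.04 ± 0.06 (edgeR adjusted p = 0.822).

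Utp20, a large helical-repeat protein of the processome, was at 112, 95.6 and 105 CPM untreated and 131, 119 and 130 CPM with tunicamycin, without overlap. The log2 change was 0.29 ± 0.07, with an edgeR adjusted p of 0.196 that became 0.0163 with the block. Heatr1, a subunit of the first processome module to join the nascent precursor, was at 213, 195 and 208 CPM and then at 241, 226 and 257 CPM, again without overlap (log2 change 0.24 ± 0.06; edgeR adjusted p = 0.232, and 0.0267 with the block). Wdr43, of the same module, was at 410, 359 and 330 CPM untreated and 453, 447 and 405 CPM treated. Here the groups overlapped, because the first untreated library exceeded the third treated one. With the block its change of 0.26 ± 0.05 passed (edgeR adjusted p = 0.0299, against 0.305 without).

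Utp3 was at 98.4, 102 and 110 CPM untreated and 120, 123 and 120 CPM with tunicamycin, without overlap (edgeR adjusted p = 0.232, and 0.0417 with the block). Nop14, which binds the pre-small subunit, was at 144, 144 and 150 CPM and 158, 174 and 174 CPM (edgeR adjusted p = 0.251, and 0.0409 with the block). Tsr1, related to the GTPase Bms1 and present on late small subunit precursors, was at 245, 225 and 204 CPM and 279, 260 and 249 CPM. Its treated libraries all lay above the untreated ones, with 0.0261 as the edgeR adjusted p in the block fit and 0.305 without it.

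Outside the small subunit list, Ncl (nucleolin), an abundant nucleolar protein that binds pre-rRNA, was at 2420, 2320 and 2390 CPM in untreated and 2680, 2770 and 2900 CPM in tunicamycin RNA. Its log2 change was 0.23 ± 0.06 (edgeR adjusted p = 0.232, and 0.0326 with the block). Nop58, a core box C/D protein, was at 593, 535 and 548 CPM and 685, 673 and 631 CPM (0.26 ± 0.07; edgeR adjusted p = 0.234, and 0.0316 with the block). Neither gene's groups overlapped. Gnl2, a GTPase of the pre-large subunit, was the large subunit factor that passed with the block, at 145, 141 and 136 CPM and then 165, 164 and 156 CPM (edgeR adjusted p = 0.262, and 0.0331 with the block).

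The 4 box H/ACA genes had a median log2 change of -0.03 in RNA. Nhp2, which binds the guide RNA, was at 465, 444 and 414 CPM untreated and 413, 407 and 368 CPM with tunicamycin, every treated library below every untreated one, with an edgeR adjusted p of 0.441. Dkc1 (dyskerin), the pseudouridine synthase of the particle, was at 406, 369 and 382 CPM and 416, 399 and 415 CPM, with overlapping groups. Nop10 was at 254, 285 and 287 CPM and 246, 261 and 260 CPM. The groups of Nolc1, a chaperone of snoRNPs, also overlapped, at 756, 703 and 676 CPM against 709, 732 and 748 CPM.

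The large subunit factors lay close to the centre of all genes, with a median log2 change of 0.04 over 15. Gnl3 (nucleostemin) was at 443, 426 and 394 CPM untreated and 411, 448 and 457 CPM treated. Rrp1 was at 397, 419 and 392 CPM and 394, 415 and 413 CPM. Both had overlapping groups. Of Pes1, Bop1 and Wdr12, which form 1 complex of the pre-large subunit, none passed in either fit, with log2 changes of 0.08, -0.02 and 0.09.

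**Figure D2:**
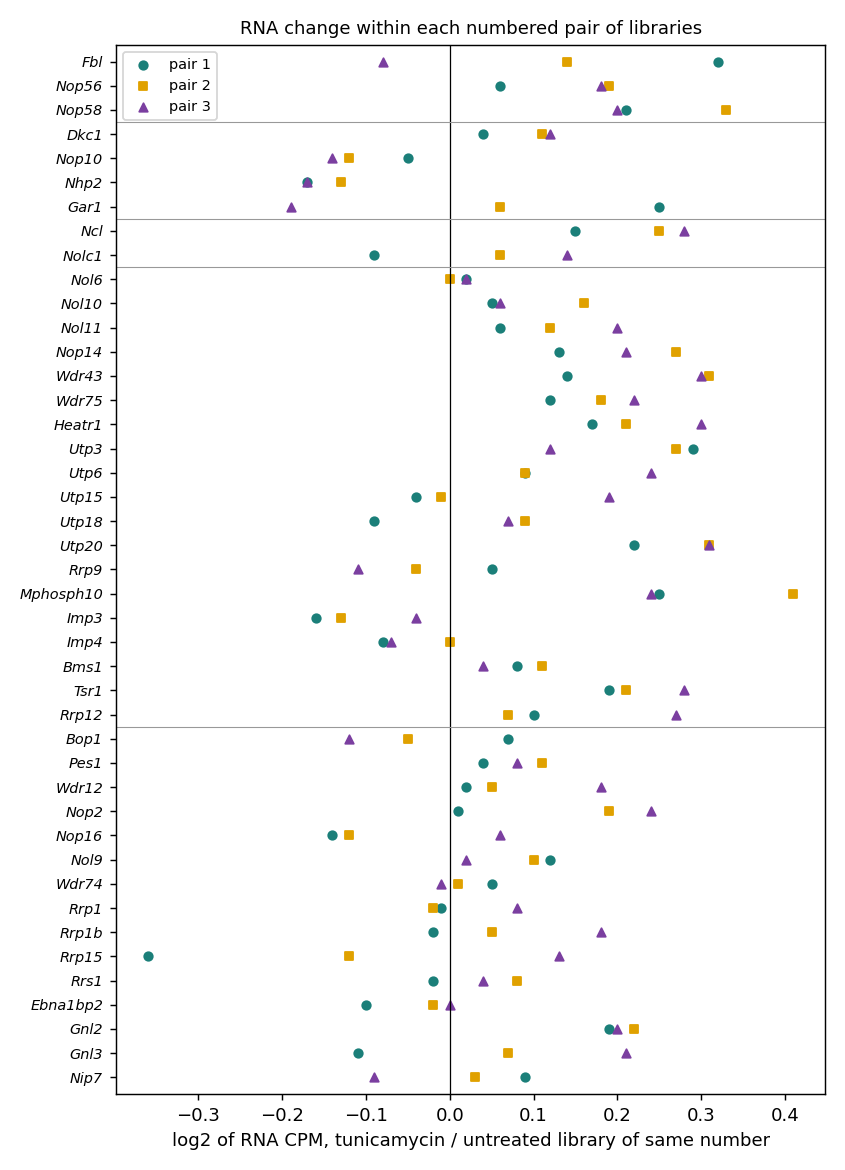
Log2 ratio of RNA CPM, tunicamycin over the untreated library of the same number (x axis), for each of the 43 genes (y axis), grouped from top to bottom as box C/D, box H/ACA, scaffold, small subunit and large subunit. Symbols are the 3 numbered pairs; in 23 genes (53.5%) all 3 pairs lie above 0 and in 4 (9.3%) all lie below, against 21.2% and 23.6% of all genes tested.

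The RNA change also went with the genomic length of the gene. Across the 43 members the log2 RNA change and the span from RefSeq start to end had a Spearman rho of 0.52, against 0.29 over 10128 genes tested, and all points share the same 6 libraries. Utp20 spans 80208 bases, Heatr1 43519 and Wdr43 42854, whereas Imp3 spans 899 and Nop10 973. Single members departed from this: Nol10 spans 81675 bases with a log2 RNA change of 0.10 that passed in neither fit, and Utp3 spans 1629 with a change of 0.24 that passed with the block. For CDS footprints the corresponding rho was 0.08 over members and -0.14 over all genes tested. For CDS footprints per RNA it was -0.26 and -0.29. Whether span has a part in the RNA result was not tested. In 13 members another RefSeq gene overlaps the span, among them Nop56 (Idh3b), Dkc1 (Mpp1), Nhp2 (Rmnd5b), Tsr1 (Srr), Gnl2 (Dnali1), Gnl3 (Glt8d1), Wdr12 (Carf), Heatr1 (Gm5928) and Nop14 (Gm15522). The sources used here do not give whether counting used strand, so reads of such neighbours cannot be told apart.

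CDS footprints, the measure of ribosomes on each coding sequence, also gave no member past the threshold. The edgeR test called 0 of 43, against 2.58% of 9265 genes, with 5 members (11.6%) at an unadjusted p under 0.05, below the 16.6% of all genes. DESeq2 called 1, Nop56, against 1.67% of all genes higher. The members' median log2 change was 0.09, beside 0.00 for all genes, with 32 above and 11 below 0. In 7 members (16.3%) all treated libraries lay above all untreated ones, against 10.1% of all genes, and in 2 (4.65%), Imp3 and Utp15, all lay below, against 11.8%. With the replicate block 3 passed as higher (Nop56, Bms1 and Nop10), against 5.63% of all genes.

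The 3 box C/D core proteins had a median log2 CDS footprint change of 0.34, and no test compared the role lists. Nop56 was at 303, 295 and 255 CPM in untreated and 364, 351 and 355 CPM in tunicamycin libraries, with no overlap. Its log2 change of 0.34 ± 0.09 had an edgeR adjusted p of 0.0678, and 0.00429 with the block. Fbl (fibrillarin), the methyltransferase of the particle, was at 29.8, 23.3 and 23.8 CPM and 32.0, 27.4 and 45.0 CPM. The third treated library stood well above the rest, the groups overlapped, and the log2 change was 0.46 ± 0.17 (edgeR adjusted p = 0.181, and 0.0508 with the block). Nop58 was at 964, 1030 and 788 CPM and 988, 1070 and 1030 CPM, with overlap and a change of 0.16 ± 0.10.

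Bms1, the GTPase of the small subunit processome, was at 183, 177 and 163 CPM untreated and 205, 207 and 212 CPM with tunicamycin. These groups were apart, and the log2 change of 0.27 ± 0.09 passed with the block (edgeR adjusted p = 0.0218) but not without it (0.128). Nop10, a small protein of the box H/ACA particle, was at 211, 239 and 286 CPM and 259, 297 and 334 CPM. Its groups overlapped, yet the treated library was higher in every numbered pair, by 0.30, 0.31 and 0.22 on the log2 scale, and the edgeR adjusted p was 0.196 without and 0.00744 with the block. Imp3 was the member with the lowest change, at 175, 157 and 190 CPM and 147, 152 and 136 CPM, a log2 change of -0.25 ± 0.09 without overlap (edgeR adjusted p = 0.191, and 0.0597 with the block).

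Of the 2 members with the most CDS footprints in each role list, only Nop56 passed in DESeq2 or with the block, and in several of the others the third untreated library stood below the others. Ncl footprints were at 4770, 4800 and 3630 CPM untreated and 4880, 4990 and 4930 CPM treated. The third untreated library was lower than the other two also for Wdr43 (691, 694 and 471 CPM, then 661, 669 and 554 CPM) and Gnl3 (703, 679 and 578 CPM, then 723, 706 and 678 CPM). Heatr1 was at 580, 539 and 513 CPM and 628, 538 and 562 CPM. Dkc1 was at 449, 432 and 398 CPM and 449, 468 and 469 CPM. Nhp2 was at 234, 243 and 271 CPM and 229, 240 and 209 CPM. Of these 6 genes, the groups of Ncl alone did not overlap, and its edgeR adjusted p was 0.459. Nolc1 (412, 375 and 401 CPM, then 436, 418 and 417 CPM) had groups apart and Rrp1 (423, 393 and 364 CPM, then 421, 368 and 368 CPM) had not.

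Translational efficiency (CDS footprints per RNA, fitted over 12 libraries as an assay by treatment interaction) did not pass for any member. The edgeR test called 0 of 43, against 1.49% of 9218 genes. DESeq2 called 0, against 210 higher and 178 lower of all genes. In edgeR the unadjusted p was under 0.05 for 2 members (4.65%), against 15.4% of all genes. The median log2 change was -0.06, beside -0.01 for all genes. Of the 19 small subunit factors 15 were below 0 and 4 above, with a median of -0.11. The RNA libraries enter both this ratio and the RNA change, so the 2 are not independent.

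Nop10 had the smallest p, with an efficiency change of 0.38 ± 0.14 on the log2 scale (edgeR adjusted p = 0.171). With the block it was 0.39 ± 0.08 and passed (edgeR adjusted p = 0.00593), the 1 member called, against 4.69% of all genes called higher. Its RNA was lower and its footprints higher in the treated library of each pair. Utp20 had a change of -0.30 ± 0.14 (edgeR adjusted p = 0.317), with footprints of 325, 318 and 260 CPM untreated and 321, 266 and 304 CPM treated beside the RNA given above. Rrp15, a large subunit factor, had 0.29 ± 0.14 (edgeR adjusted p = 0.338). Its footprints were at 116, 120 and 132 CPM and 131, 139 and 145 CPM, and its RNA at 149, 165 and 135 CPM and 116, 152 and 147 CPM.

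**Figure D3:**
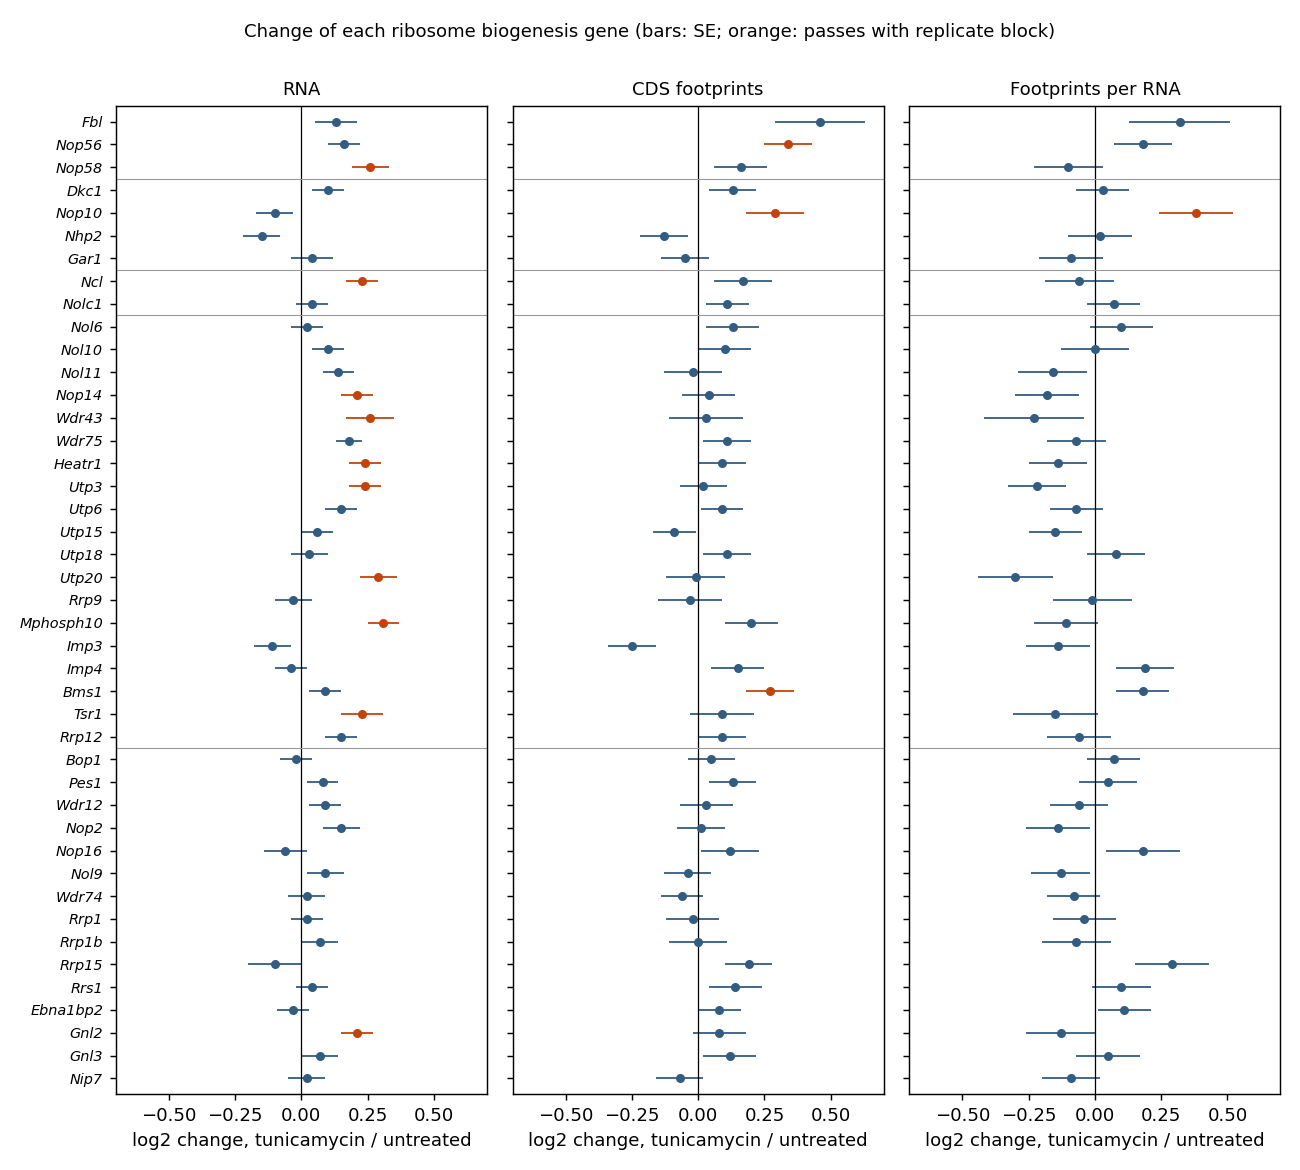
Log2 change with tunicamycin (x axis) in RNA, CDS footprints and footprints per RNA for each of the 43 genes (y axis, grouped by role). Points are fitted values of 3 against 3 libraries per assay and bars the SE; orange points pass in the fit with the replicate block and not without it (10 in RNA, 3 in CDS footprints, 1 in footprints per RNA).

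The measure that changed in most members was the footprint level of the 5′ leader relative to the CDS. It was tested within the cycloheximide libraries as the interaction of feature and treatment. Of 37 members with enough leader footprints 27 rose and 0 fell, against 64.4% of 4693 genes tested that rose and 3 genes that fell. The members' median log2 change was 1.00, beside 0.90 for all genes, and the change was shared with most of the table. In 32 of the 37 (86.5%) all treated leader shares lay above all untreated ones, against 69.3% of all genes. DESeq2 called 24 of the 37 as higher, leaving out Bms1, Utp18 and Mphosph10, against 2362 of all 4693 genes. Pooled over all members, leader footprints made up 2.80% ± 0.554 (SD, n = 3) of leader and CDS footprints untreated and 5.98% ± 1.09 with tunicamycin, while over all genes the share was 4.93% ± 0.739 and 8.81% ± 1.47. A member could pass the filter on low counts through its treated libraries alone, so these counts describe the members tested and not all 43.

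The 3 members with the highest leader share were a box H/ACA protein, a box C/D protein and a subunit of the Pes1 complex. In Nhp2 the leader held 23.6%, 18.1% and 16.3% of footprints untreated and 35.7%, 34.4% and 41.7% with tunicamycin, a log2 change of the leader to CDS ratio of 1.32 ± 0.25 (edgeR adjusted p = 0.00119). In Wdr12 it held 22.2%, 21.4% and 26.0% and then 30.9%, 30.1% and 42.2% (0.79 ± 0.25; edgeR adjusted p = 0.0160). In Fbl it held 15.7%, 14.7% and 18.6% and then 32.3%, 30.3% and 31.4% (1.23 ± 0.23; edgeR adjusted p = 0.00129). None of these groups overlapped. Fbl is also the member whose CDS footprints were few (23.3 to 45.0 CPM).

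All 4 box H/ACA genes rose. Dkc1 went from 2.23%, 1.75% and 1.81% to 3.42%, 4.02% and 6.40%. Nop10 went from 2.16%, 1.59% and 2.03% to 3.46%, 4.13% and 6.34%. Gar1, which joins the particle last, went from 5.99%, 5.11% and 6.20% to 11.1%, 8.32% and 11.8%. The treated libraries were higher than every untreated one in each of the 4, and the third treated library was the highest in each. Of the box C/D genes Nop58 rose, from 3.67%, 3.18% and 4.26% to 6.25%, 5.99% and 9.01%. Nop56 did not pass, with 1.08%, 0.572% and 0.426% against 0.824%, 0.810% and 1.31% and an edgeR adjusted p of 0.274. Ncl rose from 2.98%, 1.52% and 2.41% to 6.20%, 4.89% and 7.23% (1.50 ± 0.28; edgeR adjusted p = 0.00121), and Nolc1 did not pass (0.56 ± 0.37).

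Among the small subunit factors 12 of 16 tested rose. Utp15, of the module that holds Heatr1 and Wdr43, went from 3.52%, 3.53% and 3.40% to 9.05%, 8.16% and 10.8%, and had the smallest p of all members (1.50 ± 0.24; edgeR adjusted p = 0.000683). Nol11, of the same module, went from 1.07%, 0.770% and 1.11% to 2.71%, 2.85% and 2.89%. Heatr1 went from 8.32%, 4.43% and 6.72% to 11.7%, 9.84% and 14.8%. None of these 3 had overlapping groups; Utp15 and Nol11 had wide gaps, while the highest untreated and lowest treated values of Heatr1 were close.

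Nop14 had the largest fitted change of the members (1.63 ± 0.32; edgeR adjusted p = 0.00151), from 2.97%, 1.41% and 2.15% to 5.77%, 5.05% and 8.50%. Rrp12, a repeat protein tied to export of the precursors, followed with 1.58 ± 0.32, from 5.42%, 2.71% and 3.53% to 10.4%, 7.34% and 14.9%. Rrp9, a protein of the U3 snoRNP, went from 6.01%, 7.13% and 11.4% to 11.9%, 15.2% and 19.4%. In each of these genes every treated library lay above every untreated one, and the highest untreated value of Rrp9 lay just below its lowest treated one.

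Utp3 went from 2.59%, 1.27% and 2.69% to 4.35%, 4.02% and 5.51%. Utp6 went from 1.66%, 1.22% and 1.56% to 2.54%, 2.33% and 3.36%. Utp18, which works beside Utp6 in a second processome module, went from 2.98%, 1.88% and 3.37% to 3.81%, 4.62% and 5.25%. In all 3 the treated libraries lay above the untreated ones. Nol10 went from 1.45%, 1.02% and 1.50% to 2.29%, 2.74% and 2.80%. Bms1 went from 2.88%, 2.47% and 3.06% to 4.42%, 4.08% and 5.27%. Mphosph10 went from 0.585%, 0.528% and 0.400% to 0.783%, 1.37% and 0.940%. Bms1, Utp18 and Mphosph10 passed narrowly, with edgeR adjusted p-values of 0.0270, 0.0304 and 0.0345.

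Among the large subunit factors 8 of 12 tested rose. Pes1 went from 3.58%, 2.51% and 4.28% to 7.51%, 7.86% and 11.6% (1.46 ± 0.28; edgeR adjusted p = 0.00130). Nop2, an rRNA cytosine methyltransferase, went from 0.543%, 0.884% and 0.806% to 2.43%, 1.98% and 1.88% (1.51 ± 0.36; edgeR adjusted p = 0.00364). Gnl2 went from 3.32%, 2.22% and 2.77% to 5.25%, 7.15% and 8.22% (1.36 ± 0.28; edgeR adjusted p = 0.00170). In these 3 every treated library exceeded every untreated one.

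Nip7 went from 4.45%, 2.88% and 3.64% to 6.36%, 7.14% and 9.32%. Nop16 went from 5.76%, 3.12% and 2.37% to 6.74%, 8.48% and 7.42%. Gnl3 went from 1.64%, 1.34% and 1.65% to 1.94%, 2.76% and 3.61%. Their groups were also apart. Rrs1, a factor that brings in the 5S particle with its partners, went from 5.47%, 1.95% and 2.95% to 5.92%, 5.65% and 9.20%, with the highest untreated value close to the lowest treated one (edgeR adjusted p = 0.0255).

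Rrp1b, a nucleolar paralogue of Rrp1, was the 1 member of the 37 with a fitted value below 0. Its leader held 4.22%, 5.17% and 4.90% of footprints untreated and 4.22%, 4.56% and 4.64% with tunicamycin, with overlapping groups (-0.09 ± 0.26; edgeR adjusted p = 0.751). It had 230 leader reads over the 6 libraries. Imp4 was also low, with 6.61%, 5.26% and 5.51% against 5.51%, 5.73% and 8.95% (0.22 ± 0.29; edgeR adjusted p = 0.501). The other 8 that did not pass, Wdr74, Ebna1bp2, Nol6, Rrp15, Wdr75, Tsr1, Nolc1 and Nop56, had fitted values from 0.49 to 0.81. The difference between these members and those that rose was not tested.

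The 6 members left untested had few or no leader reads. Bop1 had 0 in all 6 libraries, Imp3 1, Wdr43 6, Rrp1 7, Utp20 16 and Nol9 47. Wdr43 and Rrp1 were each among the 2 highest of their role list in untreated CDS footprints. Why these 6 members had few or no leader reads was not tested. The sources used here do not give the rule for reads that fall in the leader of some transcripts and the CDS of others. Nor do they give it for reads that cross from leader into CDS, as at a start codon. Both rules bear on the level of every leader share.

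**Figure D4:**
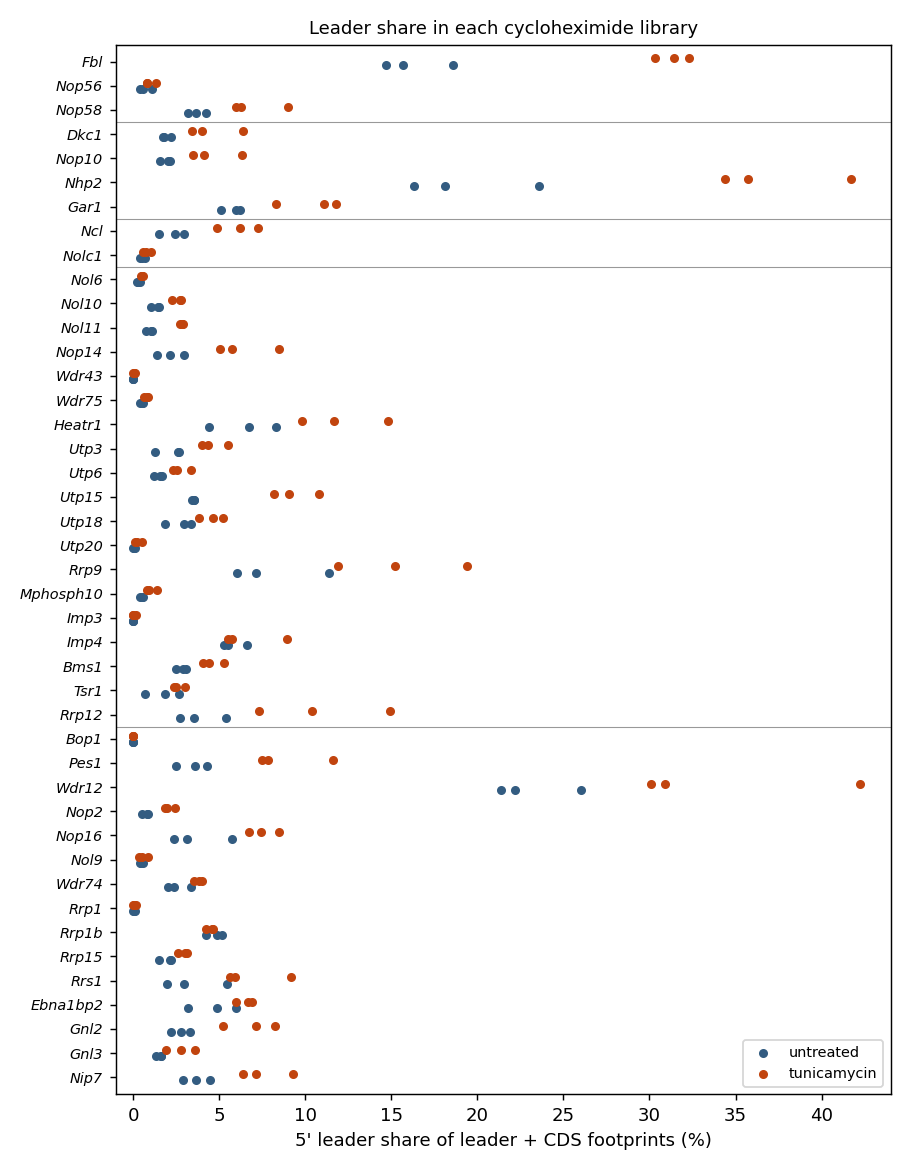
Share of leader footprints among leader and CDS footprints (x axis, percent) in each of the 6 cycloheximide libraries for the 43 genes (y axis, grouped by role). Each point is 1 library; Fbl, Nhp2 and Wdr12 lie far to the right of the rest, and Rrp1b and Imp4 show overlapping groups.

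Footprints in the 3′ UTR relative to the CDS gave no call among the members. Of 43, 20 had enough reads to be tested, and edgeR called 0, against 0.447% of 2015 genes, and p was under 0.05 before adjustment for 1 member (5.0%), against 9.48% of all genes. DESeq2 also called 0 members, against 7 higher and 3 lower of 2015 genes. Nop10 had the smallest p, with 460, 619 and 663 reads untreated and 311, 351 and 341 with tunicamycin, and a log2 change of the ratio of -0.64 ± 0.17 (edgeR adjusted p = 0.173). Its 3′ UTR counts did not overlap between groups, at lower total depth in the treated libraries. Nop16 (-0.44 ± 0.23, with 73, 107 and 70 then 48, 41 and 59 reads) and Nolc1 (0.61 ± 0.33, with 22, 16 and 12 then 13, 24 and 24 reads) came next, both with edgeR adjusted p = 0.621.

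Harringtonine reads at the deposited positions, only some of which could be read for an ATG, did not pass for any member. The files held 83 positions in 35 members and none in 8, with 25934 reads in all, and 11 members had 1 position. Summed per gene, edgeR tested 32 members and called 0, against 0.0272% of 3681 genes. Before adjustment 2 members (6.25%) had p under 0.05, against 3.61% of all genes. DESeq2 called 0 of the 32, against 2 higher and 0 lower of 3681 genes. By position, 59 were tested and 0 called, against 0.00% of 5843, and 3 (5.08%) had p under 0.05 before adjustment, against 3.63%.

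Dkc1 had the smallest p of the genes. Its only position, X:75096099, lies 245 bases from the gene's start and held 49, 39 and 45 reads untreated and 90, 67 and 108 with tunicamycin. Scaled to 1 M kept reads these were 93.5, 87.3 and 93.5 against 139, 120 and 183, without overlap, but the edgeR adjusted p of the change (0.68 ± 0.26) was 0.998. Gnl3 was at 157, 166 and 160 CPM of kept reads untreated and 84.9, 109 and 134 treated, also apart (-0.57 ± 0.26; edgeR adjusted p = 0.998). The position behind it was 14:31017866, with 41, 54 and 56 reads and then 26, 27 and 47. Utp6 was at 143, 105 and 85.1 and 290, 124 and 124 CPM, where 1 treated library was far above the rest.

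The position with the most reads was in Ncl, at 1:86359304, 151 bases from the start of its span, with 5656 reads or 56.4% of the gene's harringtonine reads. It held 1072, 668 and 1025 reads untreated and 1413, 819 and 659 treated, so the treated libraries spanned the untreated ones. Ncl had 6 positions, from 111 to 2817 bases from its start. Heatr1 had 1 position, 13:12395398, with 517, 401 and 463 reads untreated and 725, 575 and 615 treated, and it is the ATG printed above. Scaled likewise, Heatr1 was at 987, 898 and 962 and then 1120, 1030 and 1040, apart but with a position change of 0.17 ± 0.21. At Imp4 the adjacent positions 1:34439918 and 1:34439919 had fitted values of -0.01 and 0.74, and neither passed after adjustment. None of the 83 positions fell inside an annotated snoRNA.

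**Figure D5:**
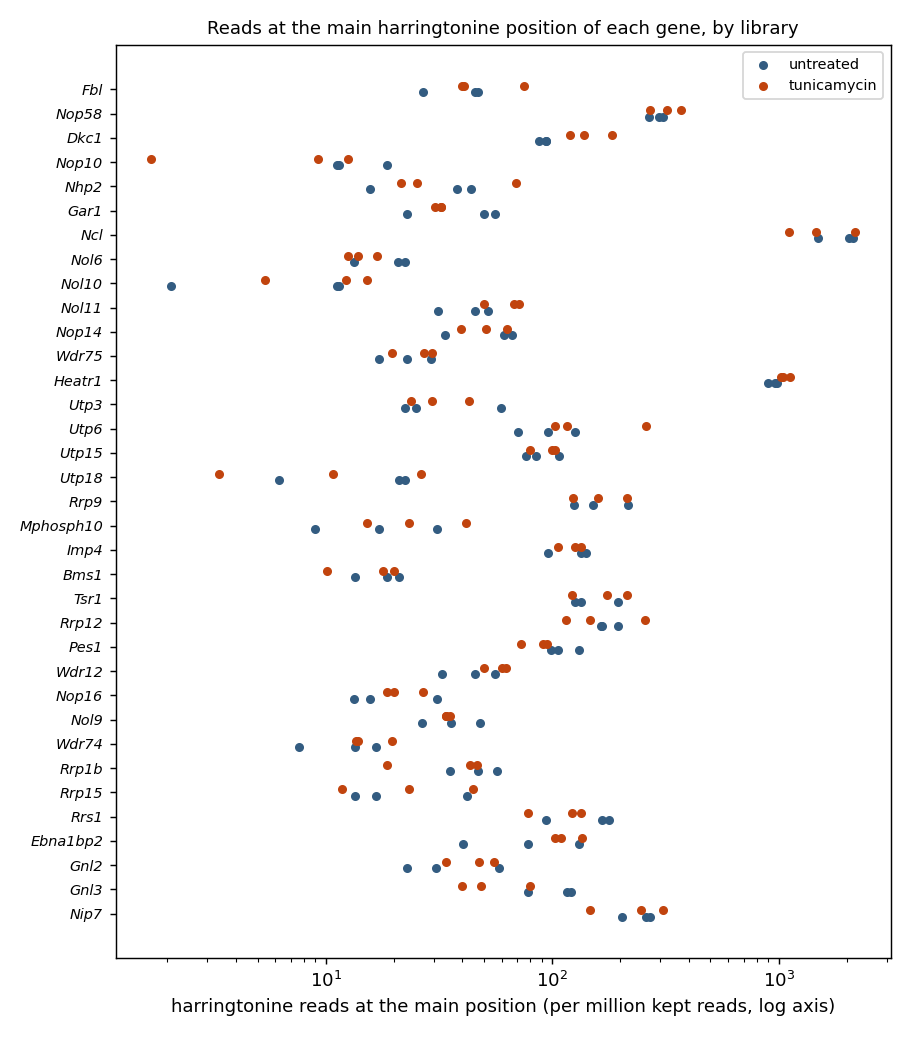
Harringtonine reads in CPM of kept reads (x axis, log scale) at the position with the most reads in each of 35 genes (y axis, grouped by role). Each point is 1 of 6 libraries; Ncl and Heatr1 lie highest, and in Ncl the untreated and tunicamycin points intermingle.

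Some members hold features that the choice by name did not use. Introns of snoRNA host genes release snoRNAs, and 7 of the 43 spans (16.3%) hold an annotated snoRNA: Nop56, Nop58, Dkc1, Ncl, Wdr43, Tsr1 and Gnl3. Among genes tested in CDS footprints with a RefSeq span, 213 of 8812 (2.42%) do. Nop56 and Nop58 hold C/D snoRNAs such as Snord57 and Snord11, of the same class that their proteins bind. RNA counts of these hosts passed with the block in Nop58, Ncl, Wdr43 and Tsr1 and not in Nop56, Dkc1 or Gnl3.

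The E-box CACGTG is bound by Myc, a known driver of ribosome biogenesis genes, among other factors. It reads the same on both strands and was searched in the RefSeq promoter windows. It was present in 8 of 36 members with a window (22.2%), namely Imp4, Nop2, Utp20, Pes1, Tsr1, Utp18, Nol11 and Wdr43, against 8.09% of all 27025 genes and 12.9% of 7210 genes tested in CDS footprints. The 3 whose RNA passed with the block are shown with the E-box in capitals. It begins 37 bases after the RefSeq start of the window in Utp20, 24 in Tsr1 and 17 in Wdr43. In Wdr43 that start lies downstream of the first base of the gene's span. In Tsr1 the E-box lies just before the ATG at which harringtonine reads were found.
Utp20, chr10:88826765-88826794, minus strand: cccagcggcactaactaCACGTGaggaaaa
Tsr1, chr11:74898092-74898121, plus strand: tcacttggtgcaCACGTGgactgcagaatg
Wdr43, chr17:71616220-71616249, plus strand: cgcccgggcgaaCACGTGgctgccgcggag
A match describes the letters in the window and not a bound site, and Fbl, Nol6, Rrp12, Bop1, Rrs1, Gnl2 and Utp6 were not matched to a window. The other 5 members with an E-box did not pass in RNA in either fit.

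Other biogenesis genes, taken from lists of further small subunit factors, further large subunit factors, the RNA exosome and RNA polymerase I initiation, were measured beside the members. Without the block edgeR called 0 of 103 measured genes in RNA, where 33 (32.0%) had p under 0.05 before adjustment, against 12.4% of all genes. DESeq2 called 5 (0.714% of all genes higher). In edgeR with the block 17 passed as higher and 0 as lower (2.66% of all genes higher, and 127 of 10643 lower). Those with the smallest p were Dnttip2 (0.54 ± 0.07), Pdcd11 (0.30 ± 0.04), Tex10 (0.27 ± 0.04) and Riok2 (0.24 ± 0.04) on the log2 scale. In CDS footprints Dnttip2, a nucleolar factor of the small subunit processome, was the 1 of 103 that passed without the block (0.92 ± 0.13; edgeR adjusted p = 0.00214), against 2.58% of all genes. With the block 9 passed as higher, against 5.63% of all genes, among them Taf1a (0.56 ± 0.12), Taf1c (0.41 ± 0.10) and Ttf1 (0.70 ± 0.17) of the polymerase I initiation list. In efficiency edgeR called 0 of 103 without the block, against 1.49% of all genes, with 13 (12.6%) at p under 0.05 before adjustment, and DESeq2 called 0 higher and 2 lower, against 1.93% of all genes lower. With the block 2 rose and 3 fell, against 4.69% and 4.42% of all genes, among them Nsa2 (-0.63 ± 0.13), Riok2 (-0.31 ± 0.08), Taf1c (0.39 ± 0.11) and Wdr3 (-0.26 ± 0.08). In the leader to CDS ratio 40 of 53 tested rose, against 64.4% of all genes, with Pdcd11 (1.71 ± 0.33), Noc3l (1.39 ± 0.30), Zfp622 (1.55 ± 0.34) and Ddx56 (1.24 ± 0.27) having the smallest p.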

How the data were processed

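Raw read counts, deposited by the authors per leader, CDS, 3′ UTR and gene and per harringtonine position, were used as given. Per the submitters' processing notes STAR, HTSeq and edgeR were used with mm10 and GRCm38; the sources used here do not give versions or counting options. Tests used edgeR 4.0.16 in R 4.3.3 (TMM, filterByExpr with minimum count 10 and minimum total 15, glmQLFit, glmQLFTest, Benjamini-Hochberg over all features tested); DESeq2 1.42.0 was an alternative. The tests of RNA (with and without the block), CDS footprints, efficiency, leader to CDS ratio and harringtonine reads per gene were tried on simulated data. The simulated libraries held no pair effect. The tests of the 3′ UTR ratio and harringtonine positions, the other block fits and DESeq2 were not tried in this way. Same-numbered untreated and tunicamycin libraries correlated in their deviations over genes (RNA 0.58, 0.522 and 0.278; cycloheximide 0.458, 0.118 and 0.353, all over 0.1), so the numbers in the labels were taken as pairs. Between libraries of different number the values ran from -0.551 to 0.251 in RNA and from -0.383 to 0.0343 in cycloheximide. The 0.251, of untreated library 2 with tunicamycin library 3, was close to the 0.278 of pair 3. CPM are reads over the library total; levels are not compared between genes, because transcript lengths were not used here. TMM sets the typical gene near 0, so RNA, CDS footprint and efficiency changes are relative to it. Harringtonine counts per gene are sums of kept positions, taken as 1-based. The members and lists were chosen with earlier results of these data known. Members passing in a test, or the 3 with the smallest p where none passed, and the 2 per role with the highest untreated CDS footprints were given per library.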

Additional observations from a re-analysis of the deposited data

How the results depend on the processing

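The result that depended most on the fit was the number of members called in RNA. Without the replicate block it was 0 higher. It was 4 in DESeq2, 2 (Mphosph10 and Utp20) with no filter on low counts and 10 with the replicate block. With no filter 92 of all 14905 genes were called higher. Leaving a pair out of the block, an alternative added after seeing the data, gave 1 without pair 1 (101 of 10791 genes higher). It gave 0 without pair 2 (32 of 10505 genes higher). Without pair 3 it gave 21 higher and 3 lower, against 1271 higher and 1037 lower of 10698 genes. In CDS footprints the count was 0 in the fit without the block, 1 in DESeq2, 2 (Fbl and Nop56) with no filter and 3 with the replicate block. With no filter 358 of all 12812 genes were called higher. With a pair left out of the block the member count was 2 without pair 1 (411 of 9299 genes higher) and 2 without pair 3 (471 of 9260). Without pair 2 it was 5 higher and 1 lower (Imp3), against 476 higher and 397 lower of 9294 genes. In efficiency 1 member (Nop10) passed with the block. The cause was not tested. Leaving out any 1 library without the block gave 0 members in RNA, CDS footprints and efficiency. In the leader to CDS ratio it gave from 19 members without the third tunicamycin library (1906 of 4898 genes higher) to 27 without the first untreated library (2845 of 4964). The block changed no other call: the leader count stayed at 27. No result reversed its direction. The block was not applied to harringtonine, whose columns could be tied to a group but not to single samples. Low counts left 6 members untested in leaders, 23 in 3′ UTRs and 11 in harringtonine reads per gene, 8 of the 11 with no position listed.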
